A study of Mus musculus with 54 samples.

Results

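Alpha-synuclein-loaded microglia (donors) were compared with the microglia they had shared a dish with for 300 min (acceptors), using the 7 libraries of that time among the 54 of the series. Every library labelled with 300 min of co-culture was taken, which gave 4 donor libraries (experiments 1, 2, 3 and 4) and 3 acceptor libraries (experiments 1, 2 and 4). Experiment here means the replicate number in the library title. Donors and acceptors with the same experiment number form 3 pairs. Both populations were primary microglia of neonatal C57BL/6 mice, a wild-type inbred strain, with no genetic change named in the labels. Cells of pooled brains had grown in flasks for 7 to 10 days with supernatant of L929 cells, a mouse fibroblast line, and were shaken off the astrocyte layer beneath them. Donors took up 1 µM alpha-synuclein (aSyn) carrying the dye Atto-488 for 14 h in petri dishes. Acceptors received no aSyn but CellTracer Violet, a dye that fills living cells, for 15 min in smaller flasks. The mixed cells were separated again by flow cytometry on these dyes, and 3′ ends of polyadenylated RNA were counted by QuantSeq. aSyn, dye, vessel and seeding density all differ between the groups, so their parts in any difference cannot be told apart.

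Microglia are the resident phagocytes of the brain. They take up aggregates of aSyn, the protein that accumulates in Parkinson disease, sense them through pattern recognition receptors, and break them down in lysosomes. Neighbouring microglia can also pass aSyn on through contacts and thin membrane bridges. Signals of loaded cells include cytokine genes under the transcription factor NF-kB, immediate early genes that are transcribed within minutes of a stimulus, and genes of the antioxidant and iron responses.

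The 7 libraries held between 9372418 and 14281214 counts, with 13346 to 14392 genes detected. Cells were at passage 3 in experiment 1, passage 1 in experiment 2 and passage 2 in experiments 3 and 4. The labels do not say that the experiments are separate cultures, so p-values rest on a spread between libraries that may be partly technical. That spread was estimated from all 14 groups of the series and not from these 7 libraries alone. The library numbers of experiment 4 in the labels lie apart from those of the others, and the labels name no batch. Its libraries had 15.3 to 16% of its counts in the ribosomal RNA precursor Rn45s, against 5.38 to 13.5% in the others. Experiment 4 has 1 library per group, so no test was possible within it alone. Markers of microglia summed to between 1780 and 5172 CPM (counts scaled to a common library size) in donors and between 3557 and 4771 in acceptors. Of 8 astrocyte markers 0 differed between the groups, and their sum was 14.2 to 35.3 CPM in donors and 7.59 to 31.6 in acceptors. For 9 markers of the oligodendrocyte lineage the sums were 83.4 to 179 and 81.4 to 109 CPM, also with 0 differing. In such bulk libraries fewer cells of a type and less RNA per cell cannot be told apart.

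At 300 min donors still differed from acceptors in a small set of genes. The smallest p belonged to the adhesion receptor gene Adgre5, the citrate-cycle transporter gene Slc13a3 and Stra6l. Of 13169 genes tested, 126 were higher in donors (0.957%) and 56 were lower (0.425%), together 1.38%, by edgeR's quasi-likelihood test at an adjusted p under 0.05 with the experiment as a block. An unadjusted p under 0.05 was reached by 2066 genes. More than 2-fold differences were found for 58 of the higher and 17 of the lower genes. Without the block, edgeR called 4 genes (0.0304%), all higher in donors: Adgre5, Slc13a3, Itga9 and Nr1h3. The count also hung on single libraries: it was 82 without the acceptor library of experiment 1, 88 without that of experiment 2, 70 without that of experiment 4 and 49 without the donor library of experiment 4. CPM ranges of the groups did not overlap for 105 of the 182 genes, 74 with donors above and 31 with donors below, whereas over all tested genes 6.03% did not overlap (3.15% above, 2.88% below). Of the 182 genes, 26 stayed called when any single library was left out, 23 of them higher and 3 lower. Without experiment 4, whose library numbers lie apart, 153 genes were called, 87 of them among the 182; without experiment 1 it was 20 and without experiment 2 it was 38. Of the 26 genes, 5 stayed called when any whole experiment was left out as well: Adgre5, Slc13a3, Stra6l, Acaa1a and Exosc10. Itga9 lost its call without experiment 1 or experiment 2, and Nr1h3 and Itgal lost theirs without experiment 1.

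**Figure D1:**
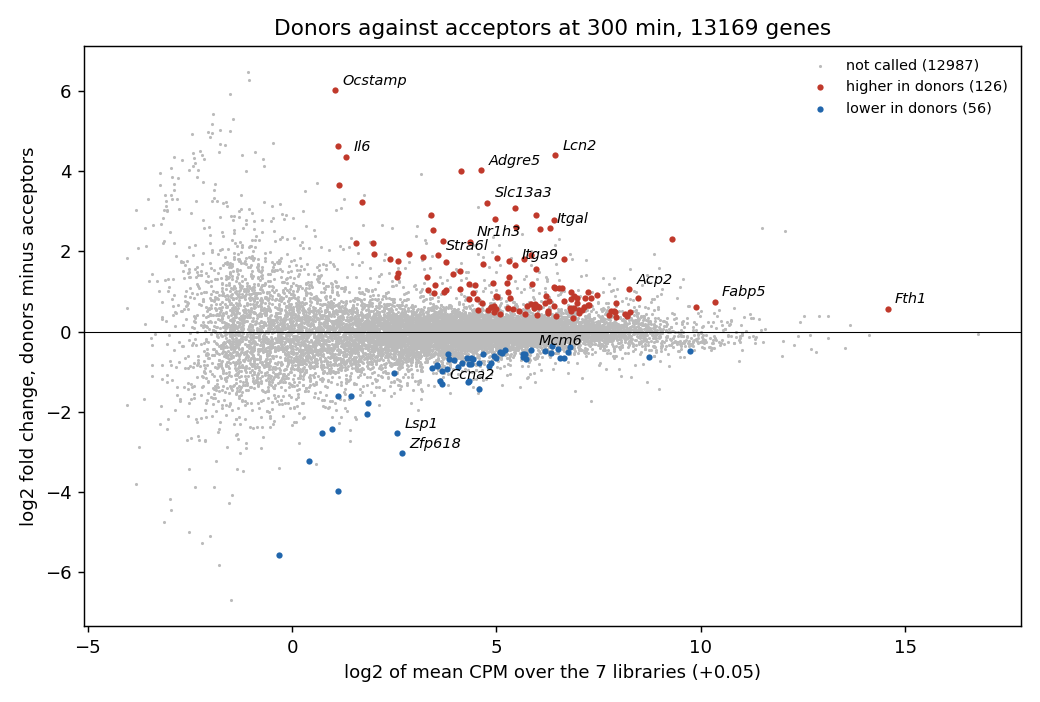
Log2 fold change of donors over acceptors at 300 min (y axis) against the log2 mean CPM of the 7 libraries (x axis) for 13169 genes. Red points are the 126 genes called higher in donors, blue points the 56 called lower, and grey points the rest.

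The adhesion receptor Adgre5 (CD97), which binds CD55 and matrix components and is carried by activated leukocytes, had the smallest p of all genes. The gene lies on the minus strand at chr8:83723251-83741326 (mm10) and overlaps Ddx39 on the other strand. Adgre5 stood at 40.5, 37.5, 59.3 and 28.6 CPM in donors of experiments 1 to 4 and at 2.57, 1.79 and 2.50 CPM in acceptors of experiments 1, 2 and 4. Every donor library was at least an order of magnitude above every acceptor library. By edgeR its log2 fold change reached 4.02 (SE 0.23), higher in all 3 pairs, at an adjusted p of 1.29e-16. Cells exposed to aSyn but never mixed reached 81.1 CPM on average and untreated cells 3.04 CPM.

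Integrin genes accompanied Adgre5. Itga9 encodes the alpha 9 subunit, which binds tenascin and osteopontin. Its level was 83.5, 71, 54.7 and 40.2 CPM in donors and 13.6, 17.3 and 25 CPM in acceptors. The groups did not overlap, and the smallest gap lay in experiment 4 (log2 fold change 1.67, SE 0.30, adjusted p = 0.0015). Itgal, the alpha subunit of the leukocyte integrin LFA-1, measured 51.4, 48.3, 152 and 250.6 CPM in donors and 8.02, 12.8 and 28.8 CPM in acceptors. Here, too, all donors were above all acceptors (2.58, SE 0.47, adjusted p = 0.0015). Of 28 tested chemokine and adhesion receptors, 5 were higher (Adgre5, Itga9, Itgal, the chemokine receptor Ccr1 and Adgre1, the macrophage marker F4/80) and 0 were lower. The list's median log2 fold change was 0.07, beside -0.01 for all tested genes, of which 0.957% were called higher. DESeq2's Wald test called 8 higher and 1 lower of 26 tested, beside 227 higher and 138 lower of 10828 genes. By edgeR, the count of higher genes was 3 without the acceptor library of experiment 1 or 4 or the donor library of experiment 4.

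Slc13a3 encodes the sodium-coupled transporter NaDC3, which carries succinate and other citrate-cycle acids, and itaconate, across the plasma membrane. Slc13a3 was at 30.9, 31.4, 71 and 47.2 CPM in donors and at 2.99, 4.53 and 3.76 CPM in acceptors. The ranges were far apart, and the log2 fold change of 3.21 (SE 0.30, adjusted p = 1.28e-09) held within 3.06 to 3.41 whichever library was left out. Nr1h3 encodes LXR alpha, the nuclear receptor that turns on cholesterol efflux genes when oxysterols accumulate. It measured 30.2, 26.1, 30.8 and 35.3 CPM in donors and 4.92, 8.71 and 5.67 CPM in acceptors (2.24, SE 0.41, adjusted p = 0.0015). Donors were narrowly spread and well above acceptors. Of the 30 tested genes of cholesterol synthesis and LXR response, Nr1h3 alone was called, beside 1.38% of all tested genes. The list's median was 0.14, and 22 of its values were above 0, beside 6387 of all 13169 tested genes. By edgeR, 4 of the 30 were higher and 0 lower at an unadjusted p under 0.05, beside 1013 and 1053 of all tested genes. The LXR targets Abca1 and Apoe had log2 fold changes of -0.19 and -0.40, with adjusted p of 0.705 and 0.529. Ch25h, whose enzyme makes 25-hydroxycholesterol, an LXR ligand, was lower in donors, with 18.1, 19.5, 18.0 and 5.33 CPM against 51.0, 39.6 and 15.6 CPM (-1.42, SE 0.35, adjusted p = 0.0259). Its groups overlapped through the acceptors of experiment 4, which lay below the donors of experiments 1 to 3, and the call was lost without any of 6 of the 7 libraries.

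Nr1h3 shares its upstream region with Acp2, the lysosomal acid phosphatase gene, which was also higher. Acp2 measured 340, 436, 384 and 406 CPM in donors and 148, 253.7 and 164 CPM in acceptors (1.06, SE 0.19, adjusted p = 0.0015), with no overlap. The genes run head to head at chr2:91184061-91202834 (minus strand) and chr2:91202885-91214098 (plus strand). The 50 bases between their annotated starts are shown because both neighbours moved together (plus strand, chr2:91202835-91202884, sequence from RefSeq's promoter table, GRCm38.p6).
Nr1h3 to Acp2: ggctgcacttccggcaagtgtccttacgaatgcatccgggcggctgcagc
Madd, a regulator of Rab3 exchange whose start lies 223 bases past the end of Nr1h3 on the same strand, was called too (0.70, SE 0.12, adjusted p = 0.0015). Whether reads of one gene were counted for its neighbour was not tested.

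Fabp5, a fatty acid binding protein, measured 1131, 1457, 2106 and 1763 CPM in donors and 635, 886 and 1108 CPM in acceptors (0.74, SE 0.12, adjusted p = 2.77e-04). All donors lay above all acceptors, though the donor of experiment 1 exceeded the acceptor of experiment 4 by little. Slc11a1 (NRAMP1) exports iron and manganese from phagosomes and was at 206, 243.4, 373 and 379 CPM against 131, 136 and 224.7 CPM (0.72, SE 0.14, adjusted p = 0.00223). Within each pair the donor was higher, although the groups overlapped. Stra6l, a gene related to a retinol binding protein receptor, measured 9.05, 10.4, 11.8 and 37.9 CPM against 2.78, 4.70 and 6.48 CPM (1.90, SE 0.25, adjusted p = 7.12e-06), without overlap. Acaa1a, an enzyme of peroxisomal fatty acid oxidation, stood at 99.1, 131, 157 and 108 CPM against 71.4, 82.7 and 54.4 CPM (0.77, adjusted p = 0.0015). Exosc10, a nuclease of the nuclear RNA exosome, was only 0.53 higher on the log2 scale (SE 0.09), with the same adjusted p. Stra6l, Acp2, Madd, Acaa1a and Exosc10 were chosen after their values were seen. Of 12 tested iron handling genes, 2 were higher (Slc11a1 and the ferritin heavy chain gene Fth1, 0.58, adjusted p = 0.0425) and 0 were lower, with a median of 0.34. Among all tested genes 0.957% were called higher. The call of Fth1 was lost without any of 6 of the 7 libraries, which left 1 gene.

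**Figure D2:**
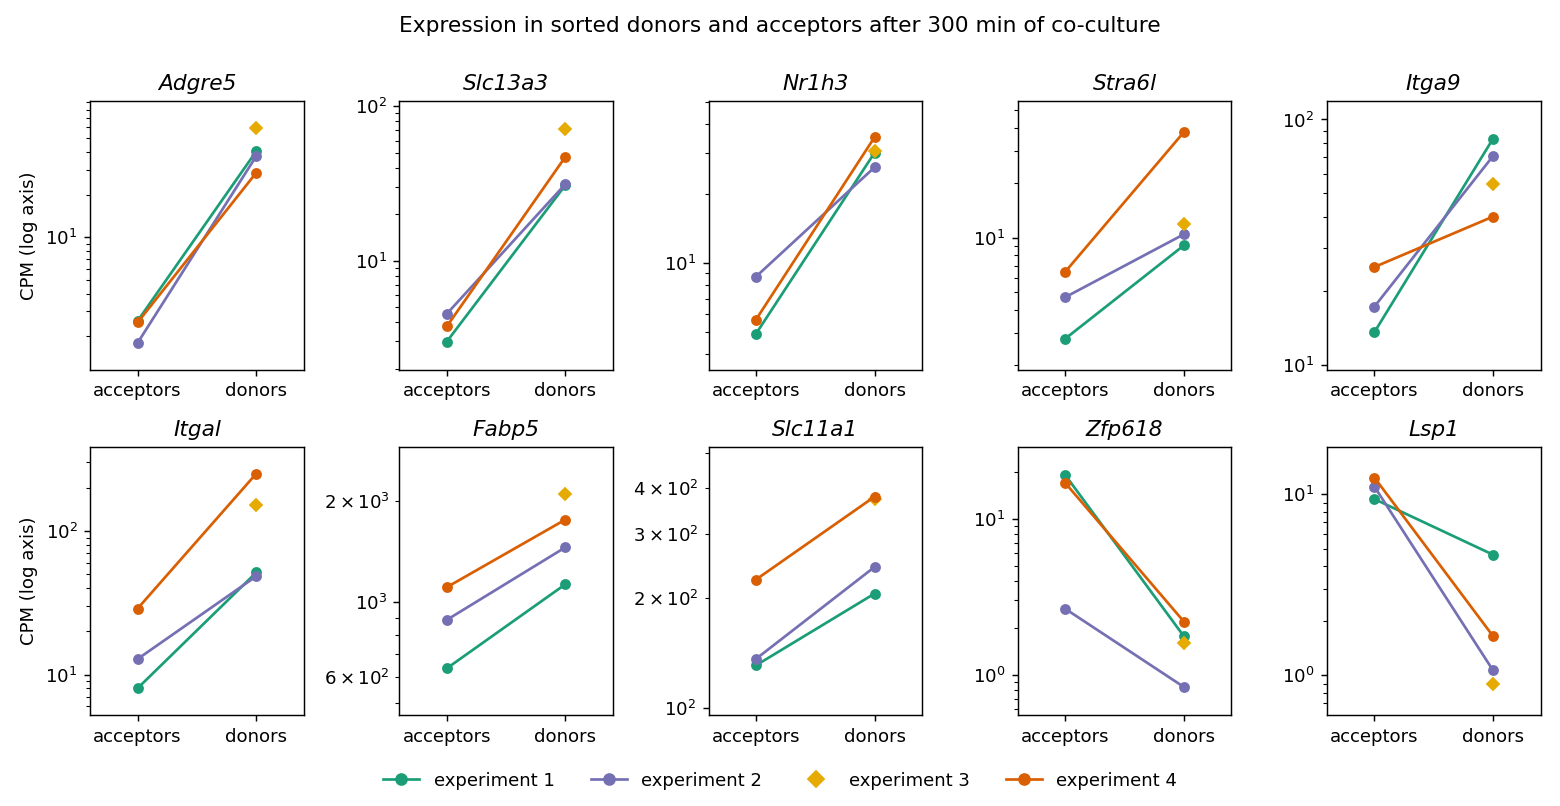
CPM (y axes, log scale, one range per panel) of 10 genes in acceptors and donors at 300 min, with lines joining libraries of the same experiment and a diamond for the donors of experiment 3, which have no acceptor partner. Adgre5, Slc13a3, Nr1h3, Stra6l, Itga9, Itgal and Fabp5 are higher in every donor library than in any acceptor library, Slc11a1 within each pair, and Zfp618 and Lsp1 are lower in every donor library.

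Bcl2a1a encodes a BCL2-related survival factor of myeloid cells and measured 23.5, 42.6, 51.0 and 168 CPM in donors and 2.46, 5.30 and 14.9 CPM in acceptors (3.07, SE 0.54, adjusted p = 0.0015). No acceptor reached a donor. Its near-identical copies Bcl2a1b (0.83, adjusted p = 0.00426) and Bcl2a1d (1.08, adjusted p = 0.0422) were called as well, and how reads were split among the copies is uncertain. All 3 copies carry the same AP-1 type motif before their start, which is why these stretches are shown. The motif is TGANTCA, searched on both strands in the 250 bases before each RefSeq start, and capitals mark it below. It occurs in 6.75% of all 32851 such windows. The first stretch is chr9:88956770-88956836 (plus), the second chr9:89199079-89199145 (plus) and the last chr9:88731928-88731994 (minus), in GRCm38.p6.
Bcl2a1a: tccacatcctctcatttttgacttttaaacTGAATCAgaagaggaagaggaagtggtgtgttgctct
Bcl2a1b: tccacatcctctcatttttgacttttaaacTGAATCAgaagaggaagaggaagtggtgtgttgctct
Bcl2a1d: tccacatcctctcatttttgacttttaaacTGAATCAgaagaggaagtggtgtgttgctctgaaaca
The Bcl2a1a and Bcl2a1b stretches matched at 67 of 67 bases. Among called genes with a RefSeq window (142 of 182), the motif was present for 9 of 98 higher genes (9.18%) and 4 of 44 lower genes (9.09%), beside 5.61% of the 10420 tested genes with a window. The 9 higher genes include the 3 Bcl2a1 copies, which are not independent of each other, so the share of higher genes is raised by them.

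H2-M2, a nonclassical MHC class I gene, had 25.7, 39.9, 218 and 268.998 CPM in donors and 5.24, 3.08 and 34.2 CPM in acceptors (2.79, SE 0.52, adjusted p = 0.00213). The acceptor of experiment 4 exceeded the donor of experiment 1, but within each pair the donor was higher. The scavenger receptor Marco, which binds bacteria and polyanionic particles, measured 14.3, 9.42, 263 and 134 CPM against 4.38, 1.03 and 9.35 CPM (2.91, SE 0.56, adjusted p = 0.00289). Its groups stood just apart, and the call was lost without the acceptor library of experiment 4 (adjusted p = 0.0891). One NF-kB type motif, 3 G, any 2 bases, 3 T and 2 C on either strand and shown in capitals, lies before its start at chr1:120505025-120505084 (minus strand), and 1.41% of all RefSeq windows hold it.
Marco: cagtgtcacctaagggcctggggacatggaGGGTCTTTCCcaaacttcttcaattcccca
Among the 98 called higher genes with a window, 3 held this motif (3.06%: Il1rn, Il6 and Marco), beside 1.78% of tested genes. Of the 44 lower genes with a window, 1 held it (2.27%, Rab15). Core motifs of the antioxidant and the interferon-stimulated response elements were searched as well. They were present for 41.8% and 3.06% of the higher genes and 40.9% and 2.27% of the lower genes, beside 41.4% and 3.36% of tested genes.

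Further surface or secreted proteins passed with less stable calls. Cd38, a NAD-consuming ectoenzyme, had a log2 fold change of 2.81 (adjusted p = 0.0137). Ccl8, a monocyte-attracting chemokine, had 2.61 (adjusted p = 0.0190), and the membrane-bound matrix protease gene Mmp14 had 2.57 (adjusted p = 0.0160). All 3 were higher in donors in each pair, their groups overlapped, and each call was lost without any acceptor library or without the donor library of experiment 4. Ocstamp, a transmembrane gene of cell fusion in osteoclasts and giant cells, had 4.86, 2.58, 3.83 and 2.74 CPM in donors and at most 2 counts in an acceptor library. Set against a floor of 3 counts per library, it was at least 13.2-fold higher (adjusted p = 0.0015); it was chosen after its values were seen.

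Inflammatory genes under NF-kB were higher in part, and mainly in the donors of experiment 4. Of 42 tested genes, 5 were higher (Lcn2, Il1a, Il6, Nos2 and Il1rn) and 0 were lower, with a median of 0.61. Among all tested genes 0.957% were called higher. DESeq2's Wald test called 8 higher and 1 lower of 40 tested, beside 227 higher and 138 lower of 10828 genes. The list's median was 0.17 in the pair of experiment 1, 0.44 in that of experiment 2 and 0.77 in that of experiment 4. Lcn2, the siderophore-binding lipocalin, measured 0.957, 0.988, 13 and 565 CPM in donors and 0.214, 0 and 25.3 CPM in acceptors (4.40, SE 0.68, adjusted p = 2.77e-04). Both high values came from experiment 4, and its acceptors exceeded the donors of experiments 1 to 3. Without the acceptor library of experiment 4 its adjusted p was 0.382. The cytokine gene Il1a stood at 0.294, 0.152, 0.801 and 117 CPM against 0, 0 and 4.86 CPM (4.0, SE 0.85, adjusted p = 0.00749). Both libraries of experiment 4 were needed for its call: the adjusted p was 0.463 without that donor library and 0.320 without that acceptor library.

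Il6, another cytokine gene, was at 0 CPM in the donors of experiments 1, 2 and 3 and at 16.6 CPM in those of experiment 4, against 0, 0.171 and 0.295 CPM in acceptors. The fitted log2 fold change of 4.36 (SE 1.02, adjusted p = 0.0172) became 0.91 without the donor library of experiment 4 and -0.21 without its acceptor library. Nos2, the inducible nitric oxide synthase gene, measured 0.0736, 2.66, 4.01 and 62.5 CPM against 0, 1.11 and 3.61 CPM (2.92, SE 0.79, adjusted p = 0.0492), and 5 of the 7 libraries were each needed for its call. For the 42 genes, the count of 5 higher became 0 without the acceptor library of experiment 4, 1 without the donor library of experiment 4 and 3 without the acceptor library of experiment 1. It was 6 without the whole of experiment 4. Neutrophil markers, of which 2 were in the table, summed to 9.40 CPM in the donors of experiment 4 and to at most 1.25 CPM in the other 6 libraries. Their part in these values was not tested.

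Interferon-stimulated genes gave 0 calls among 40 tested (edgeR), although 38 of the fitted log2 fold changes were above 0. Their median was 0.46, with 0.44, 0.11 and 0.98 in the pairs of experiments 1, 2 and 4, and 6 genes had an unadjusted p under 0.05. Over all 13169 tested genes, 6387 values were above 0 and 2066 genes had an unadjusted p under 0.05. DESeq2 also called 0 of the 40. Without the whole of experiment 4 the median was 0.23 and without its donor library alone 0.22.

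Among the 56 lower genes, Zfp618, a zinc finger gene, had the smallest p, with 1.77, 0.836, 1.60 and 2.19 CPM in donors and 19.0, 2.65 and 16.9 CPM in acceptors (-3.03, SE 0.47, adjusted p = 2.77e-04). Acceptors of experiment 2 were the lowest of their group, yet still above every donor. Lsp1, an F-actin binding protein of leukocytes, had 4.64, 1.06, 0.890 and 1.65 CPM against 9.41, 11 and 12.4 CPM (-2.53, SE 0.56, adjusted p = 0.0110), also without overlap. Its call was lost without the acceptor library of experiment 2 or 4 or the donor library of experiment 4. Mt2, a zinc-binding metallothionein, measured 7.50, 5.4, 12.7 and 25.2 CPM against 26.6, 16.3 and 45 CPM (-1.25, SE 0.27, adjusted p = 0.00825). Donors were lower within each pair, but those of experiment 4 exceeded the acceptors of experiment 2, without which the call was lost (adjusted p = 0.0761).

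The other genes named among the lower ones had log2 fold changes between -1.23 and -0.89: Trip10, which links Cdc42 to membrane bending, St3gal6, a sialyltransferase, Zfpm1, a cofactor of GATA factors, Ninl, a centrosomal protein, Sall3, a relative of the microglial factor Sall1, and the matrix protease gene Adamts10. All 6 were lower in each of the 3 pairs. Trip10 (-1.23) and Ninl (-0.93) did not overlap between groups, and the other 4 did. The calls of all 6 were lost without the donor library of experiment 4.

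Cell cycle genes were lower as a list, with few single genes past the test. All 40 tested genes had fitted log2 fold changes below 0, with a median of -0.88, and 28 had an unadjusted p under 0.05, yet only 3 were called lower by edgeR (Ccna2, Bub1 and Mcm6) and 0 higher. Over all 13169 tested genes, 6387 values were above 0, 1053 genes were lower at an unadjusted p under 0.05, and 0.425% were called lower. DESeq2's Wald test with the same block called 10 lower and 0 higher of the 40, beside 138 lower and 227 higher of 10828 genes. The pairs of experiments 1, 2 and 4 had medians of -0.38, -0.80 and -1.84. Ccna2, the S and G2 phase cyclin, stood at 18.1, 5.55, 4.54 and 4.86 CPM in donors and at 21.7, 12.7 and 21.1 CPM in acceptors (-1.32, SE 0.28, adjusted p = 0.00825). Only the donors of experiment 1 reached into the acceptor range. Bub1, a spindle checkpoint kinase, had -1.77 (adjusted p = 0.0360), and Mcm6, a subunit of the replicative helicase, had -0.46 (adjusted p = 0.00805). Ckap2, a spindle protein outside the list, had -1.04 (adjusted p = 0.0217). The count of 3 became 0 without the acceptor library of experiment 4, 1 without the donor library of experiment 4 and 5 without the donor library of experiment 1.

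The remaining lists had 0 to 2 calls each, beside 1.38% of all tested genes. Genes of oxidative phosphorylation had 1 call of 57 (Cox5a, higher) and a median of 0.05, and lysosomal and V-ATPase genes had 1 of 54 (the proton pump subunit Atp6v1d, 0.42, adjusted p = 0.0232) and a median of 0.03. Autophagy gave 0 of 38 (median -0.04), glycolysis and hypoxia 0 of 27 (0.05), actin, filopodia and nanotube genes 0 of 38 (0.00), and mitochondrial dynamics and mitophagy 0 of 21 (-0.02). The NRF2 and antioxidant list had 0 of 30, with a median of 0.09. Homeostatic microglia genes had 1 call of 22, the purinergic receptor gene P2ry13 (1.74, adjusted p = 0.0140), and a median of -0.14. Of 25 genes of disease-associated microglia, Fabp5 was higher and Ch25h lower, with a median of -0.21; the pairs of experiments 1, 2 and 4 had 0.14, 0.05 and -1.19.

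**Figure D3:**
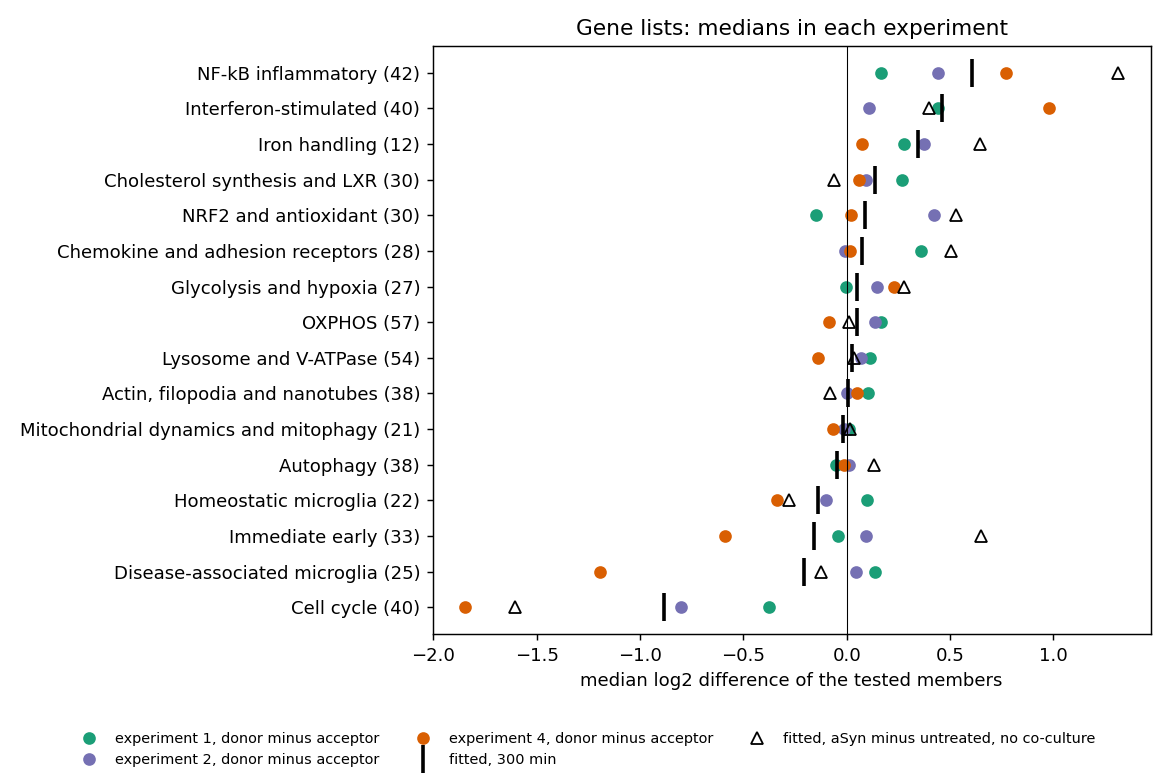
Median log2 difference (x axis) of the tested members of 16 gene lists, with the number tested in brackets. Coloured points are the donor minus acceptor differences of experiments 1, 2 and 4, black bars the fitted values at 300 min and open triangles the fitted values of aSyn-treated over untreated cells without co-culture; the cell cycle list is lowest and the NF-kB list highest.

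Lrrk2, a kinase gene of familial Parkinson disease, measured 1.4, 0.304, 0.979 and 1.96 CPM against 1.07, 0.256 and 1.84 CPM, and its log2 fold change of 0.16 (adjusted p = 0.943) changed sign when single libraries were left out. At these levels a difference was not detectable.

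Most genes called at 300 min were also called at earlier times. Of the 182 genes, 94 were called in the same direction in donors and acceptors of 0 min, 139 at 15 min, 145 at 30 min, 123 at 60 min and 136 at 150 min. These are 51.6%, 76.4%, 79.7%, 67.6% and 74.7% of the 182, and 16.7%, 11%, 10.2%, 13.9% and 19.9% of the genes called at those times. None of these comparisons shares a library with the 300 min one, though they come from the same 4 experiments. At all 5 earlier times 77 genes were called in the same direction, 63 higher and 14 lower, among them Adgre5, Slc13a3, Nr1h3, Itga9, Fabp5, Slc11a1 and Zfp618. Adgre5 had a log2 fold change of 4.27 (SE 0.22) at 0 min, 4.12 (SE 0.19) at 15 min and 3.82 (SE 0.18) at 150 min. Slc13a3 stood between 2.83 at 0 min and 3.50 at 60 min, and Nr1h3 between 2.07 and 2.34.

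Genes called at 300 min were a smaller set than at any earlier time: 564 genes were called at 0 min (4.28%), 1260 at 15 min (9.57%), 1416 at 30 min (10.8%), 882 at 60 min (6.7%) and 684 at 150 min (5.19%). The groups at 300 min held 7 libraries, as did those at 60 min, against 6 at 0 min and 8 at the other times. The change of the contrast itself was tested against 15 min and 150 min. Against 15 min edgeR called 2 of 13169 genes (0.0152%), and 636 had an unadjusted p under 0.05.

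The gene with the larger change was Klf2, a flow-responsive transcription factor that restrains inflammatory genes. Klf2 measured 33.0, 22.7, 21.3 and 8.07 CPM in donors at 300 min and 342, 116, 166 and 129 CPM at 15 min. Acceptors had 30.0, 30.5 and 14.8 CPM at 300 min and 41.8, 34.8, 29.7 and 18.5 CPM at 15 min. All donors were thus above all acceptors at 15 min, whereas at 300 min the groups overlapped, with the donors of experiment 1 the highest and those of experiment 4 the lowest. The log2 fold change of donors over acceptors was 2.55 at 15 min and -0.32 at 300 min, a difference of -2.87 (SE 0.49, adjusted p = 0.0112). Without the acceptor library of experiment 2 or the donor library of experiment 4 this call was lost, at an adjusted p of up to 0.0744.

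Wee1, a kinase that delays entry into mitosis, was the other (-1.57, adjusted p = 0.0350). Its contrast was 1.60 at 15 min and 0.03 at 300 min. Its call was lost without any of 4 libraries: the acceptors of experiments 1 and 2 and the donors of experiments 2 and 4. Against 150 min 1 gene was called (0.00759%), with 301 at an unadjusted p under 0.05. This was Zyx, the focal adhesion protein zyxin, with 169, 129, 104 and 79.2 CPM in donors and 82.6, 73.4, 67.1 and 51.4 CPM in acceptors at 150 min. At 300 min it had 60.8, 53.0, 68.0 and 51.6 CPM in donors and 70.2, 60.1 and 70.5 CPM in acceptors, so that donors were above acceptors within each pair at the earlier time and below at the later. The difference was -1.02 (SE 0.19, adjusted p = 0.0384), and it was lost without the acceptor library of experiment 4 or the donor library of experiment 1 or 2.

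Other early genes had smaller contrasts at 300 min without passing the test of change from 15 min. The immediate early list (33 genes) had 1 call at 300 min, the stress gene Gadd45b (1.37, adjusted p = 0.0104), and its median was -0.16, against 0.94 at 15 min. Over all tested genes 1.38% were called at 300 min, and the medians were -0.01 at 300 min and -0.04 at 15 min. The call of Gadd45b was lost without the acceptor library of experiment 2 or 4 or the donor library of experiment 4. Cxcr4, a chemokine receptor gene, was at 58.9, 75.5, 83.2 and 70.6 CPM in donors and 59.9, 69.4 and 69.8 CPM in acceptors, with a contrast of 0.09 at 300 min and 0.83 at 15 min (difference adjusted p = 0.950). Skil, a repressor of TGF-beta signalling, had -0.34 at 300 min and 0.86 at 15 min (difference adjusted p = 0.263).

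**Figure D4:**
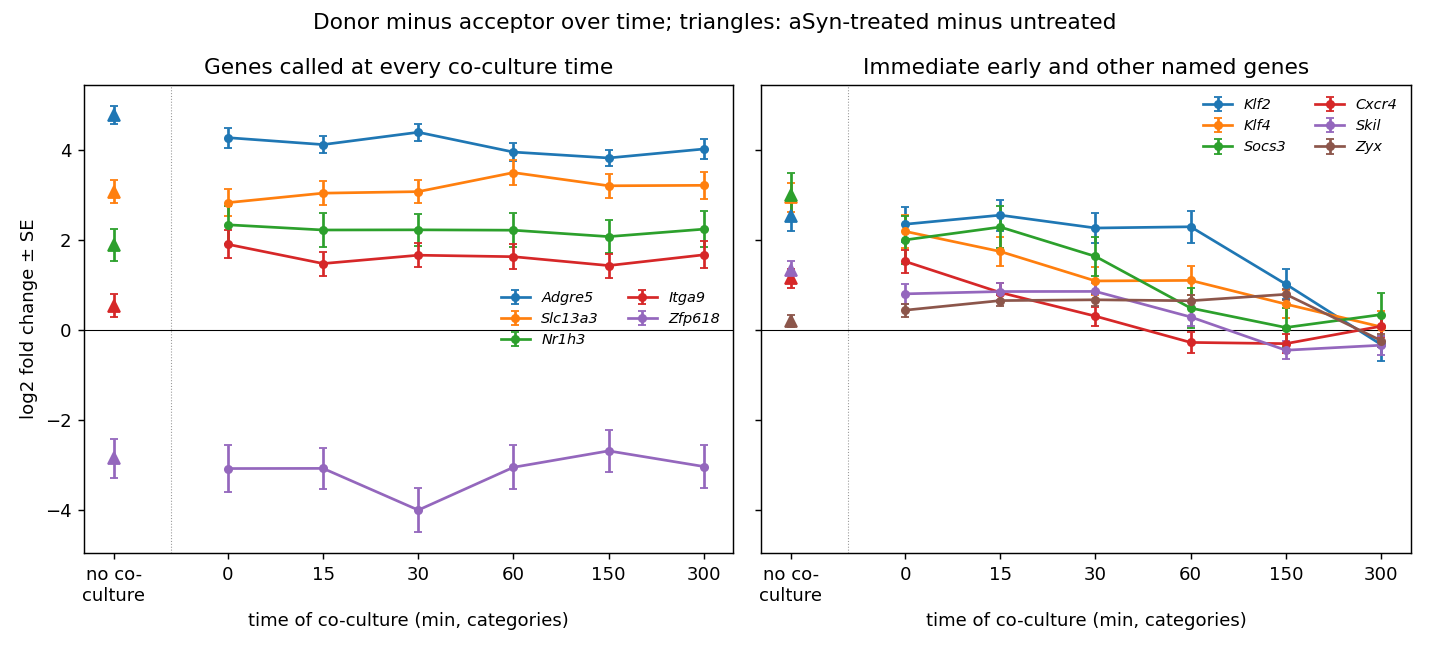
Fitted log2 fold change ± SE of donors over acceptors (y axis) at each co-culture time in min (x axis, categories not to scale), with triangles for aSyn-treated over untreated cells without co-culture. Adgre5, Slc13a3, Nr1h3 and Itga9 keep a positive and Zfp618 a negative value at every time (left), while Klf2 goes from 2.55 at 15 min to -0.32 at 300 min (right).

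Cells kept apart give a reference for aSyn exposure without co-culture: 4 libraries of aSyn-treated and 6 of untreated microglia, none shared with the 300 min groups. That contrast called 2524 genes (19.2%), and 137 of the 182 genes of 300 min were among them in the same direction (75.3% of the 182, 5.43% of the 2524). The 300 min contrast differed from it for 97 of 13169 genes by edgeR (0.737%), 37 with a more positive (0.281%) and 60 with a more negative (0.456%) value at 300 min, and 1600 had an unadjusted p under 0.05. Of these 97 genes, 31 had the same sign and a smaller size at 300 min, 66 had the opposite sign and 0 were larger with the same sign. Of the 66, 55 were also smaller in size at 300 min. Among the 97, only 6 were called at 300 min, whereas 92 were called in cells kept apart. Without the block the count was 0. Single libraries mattered here too: it was 57 without the acceptor library of experiment 1, 20 without that of experiment 4 and 31 without the donor library of experiment 1. Co-culture, its duration and the acceptors' dye and vessel may all enter the difference between the contrasts, and their parts cannot be told apart.

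Klf4 and Klf2, transcription factors of 1 family, were among the 97. Klf4 can bring back a stem cell state when expressed with partner factors. Klf4 measured 11.4, 14.1, 9.08 and 13.5 CPM in donors and 14.1, 10.3 and 13.8 CPM in acceptors at 300 min, which overlapped fully. It was at 36.0, 33.5, 38.6 and 51.3 CPM in aSyn-treated and at 5.05, 4.32, 2.66 and 9.76 CPM in untreated cells of experiments 1 to 4. Donors were thus below the aSyn-treated cells, and acceptors above the untreated cells. The contrast was 0.07 at 300 min and 2.94 without co-culture (difference -2.87, SE 0.47, adjusted p = 0.00115). For Klf2 the contrasts were -0.32 and 2.53 (difference -2.85, SE 0.49, adjusted p = 0.00188). Both differences stayed called whichever single library of 300 min was left out. With a whole experiment left out, that of Klf4 was lost without experiment 1 (-2.75, adjusted p = 0.0630) and that of Klf2 without experiment 3 (-2.77, adjusted p = 0.0695). Skil, too, differed (-1.67, adjusted p = 0.00188).

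Slc7a11, the cystine transporter of the glutathione pathway, had 11.8, 11, 110 and 276 CPM in donors and 9.62, 1.54 and 97.2 CPM in acceptors, against 29.4, 15.4, 123 and 284 CPM in aSyn-treated and 2.93, 1.70, 6.34 and 5.47 CPM in untreated cells. Acceptors of experiment 4 were the ones furthest above the untreated cells. The difference was -2.92 (SE 0.56, adjusted p = 0.00553), and without that acceptor library it was lost (adjusted p = 0.0936). Socs3, a feedback inhibitor of cytokine signalling, differed by -2.65 (adjusted p = 0.0499) and lost its call without any of 5 libraries. Tgm2, the tissue transglutaminase gene, was still called at 300 min (1.80, adjusted p = 0.00825), with 58.1, 62.7, 97.9 and 76.8 CPM in donors and 4.38, 10.5 and 48.0 CPM in acceptors. Its difference from the cells kept apart was -2.09 (adjusted p = 0.0344), and -1.02 without the acceptor library of experiment 4; the call was also lost without the donor library of experiment 2, 3 or 4. Lcn2 differed by -3.75 (adjusted p = 0.0339).

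In the other direction the largest differences were in Olig1 (3.38, adjusted p = 0.0302), Fabp7 (3.08, adjusted p = 0.0402) and Gpm6b (2.90, adjusted p = 0.0285), which are known from oligodendrocyte and astrocyte precursors. Olig1 was at 7.43, 2.13, 34.9 and 13.5 CPM in donors and 1.5, 1.71 and 12.7 CPM in acceptors at 300 min, and at 2.21, 1.42, 8.51 and 7.68 CPM in aSyn-treated and 4.44, 6.50, 84.9 and 75.3 CPM in untreated cells. Untreated cells of experiments 3 and 4 had by far the highest levels. The oligodendrocyte lineage markers, 9 in all, summed to between 122 and 605 CPM in untreated and between 86.9 and 257.1 CPM in aSyn-treated cells, and 8 astrocyte markers to between 11.3 and 139 and between 11.2 and 29.3 CPM. Their part in these differences was not tested. Sesn1, a stress-induced regulator of nutrient signalling, differed by 2.03 (adjusted p = 0.0285) and Lpar5, a lysophosphatidic acid receptor gene, by 1.85 (adjusted p = 0.0221). The calls of these 5 genes were each lost without 3 or 4 of the 7 libraries.

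**Figure D5:**
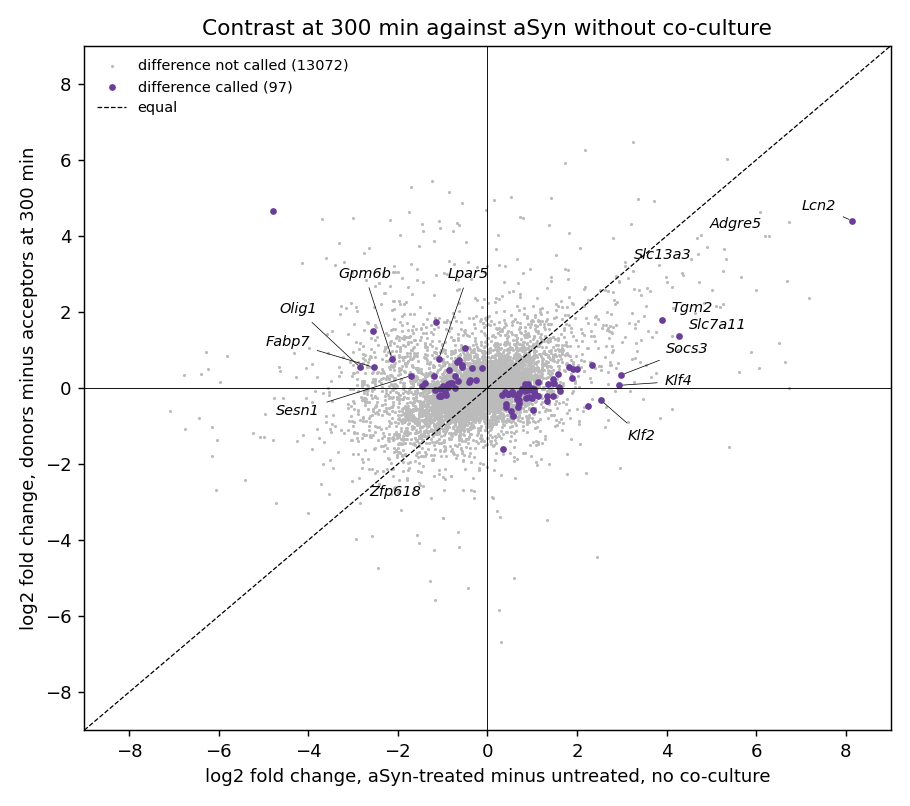
Log2 fold change of donors over acceptors at 300 min (y axis) against that of aSyn-treated over untreated cells without co-culture (x axis) for 13169 genes, with the line of equal values dashed. Purple points are the 97 genes whose contrasts differ; Klf2, Klf4 and Socs3 lie near 0 on the y axis and above 2 on the x axis, whereas Adgre5, Slc13a3 and Zfp618 lie near the line.

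Itga9 and P2ry13 were called at 300 min and not in cells kept apart (0.54, adjusted p = 0.135, and 0.26, adjusted p = 0.639). The difference itself did not pass the test for either gene (1.13, adjusted p = 0.171, and 1.48, adjusted p = 0.186). For the interferon list the medians were 0.46 and 0.40, and for the cell cycle list -0.88 and -1.60. The NF-kB list had a median of 1.31 in cells kept apart, with 31 genes higher and 1 lower, against 0.61 at 300 min with 5 higher and 0 lower. Of all 13169 tested genes, 1178 were higher and 1346 lower in cells kept apart, against 126 and 56 at 300 min. The difference between the lists was not tested.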

How the data were processed

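Raw counts per gene of 54 libraries were used as deposited by the authors (16632 genes, each with a total of at least 10). The submitters' processing notes name STAR, Partek and DESeq2, without versions or roles, and mouse build mm10. Whether counting used strand is not given in the sources used here, so overlapping and antisense genes cannot be told apart. The table held 0 further per-sample columns. In edgeR 4.0.16 (R 4.3.3, limma 3.58.1), 14 groups were fitted together with TMM scaling after filterByExpr (minimum count 10, which left 13169 genes), by the quasi-likelihood test with Benjamini-Hochberg adjusted p under 0.05. The untreated libraries sharing a number (2 pairs) were summed. CPM values were computed on TMM-scaled library sizes.

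The experiment number was a block. The labels give the numbers and a cell passage for each. Deviations from the group means correlated at 0.313, 0.507 and 0.543 within the same number, and between -0.53 and 0.11 otherwise. The fit without it is in the last section.

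Named genes were the 12 largest rises and falls with a mean of at least 5 CPM and all 3 pairs in 1 direction, up to 3 per list, up to 5 in each direction for each change of contrast, and a few fixed genes, of which 1 is not reported here. Members and lists were chosen with earlier results of these data known. Log2 CPM per pair used a prior count of 2, and bounds a floor of 3 counts, which cover counting error only. Coordinates are from GENCODE vM21 and sequences from RefSeq (GRCm38.p6). DESeq2 1.42.0, other filters and left-out libraries were alternatives. Only the edgeR fit and its test of the main donor-acceptor contrast were tried on simulated counts. The other steps were not.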

Additional observations from a re-analysis of the deposited data

Results flagged for a closer look

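Single donor libraries stood far from the other 3 for 7 of 44 named genes (Dixon's gap ratio above 0.829, on CPM that were not logged). Chance marks about 1 in 20 groups of independent, normally distributed values. That rate cannot be set against the 7 flags, because most of these genes were picked by their values in the same libraries. The donors of experiment 4 were the highest for Lcn2 (565 CPM), Il1a (117 CPM), Nos2 (62.5 CPM), Stra6l (37.9 CPM) and Il6 (16.6 CPM), and the lowest for Ch25h (5.33 CPM). The donors of experiment 1 were the highest for Ccna2, at 18.1 CPM. That library of experiment 4 also had the lowest sum of microglia markers, 1780 CPM.

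The donor-acceptor contrast of 300 min differed from that of 15 min for Klf2 (-2.87 on the log2 scale) and Wee1 (-1.57), and from that of 150 min for Zyx (-1.02), by edgeR's test of the difference. Compared with aSyn-treated and untreated cells kept apart, it was lower for Slc7a11 (-2.92), Klf4 (-2.87), Klf2 (-2.85), Socs3 (-2.65) and Tgm2 (-2.09). It was higher for Olig1 (3.38), Fabp7 (3.08), Gpm6b (2.90), Sesn1 (2.03) and Lpar5 (1.85).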

How the results depend on the processing

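The 182 genes called with the replicate block became 4 without the block, 12 when only donors and acceptors of 300 min were fitted and 365 with DESeq2's Wald test (227 higher, 138 lower), and stayed at 186 with DESeq2 size factors and 167 without the filter on low counts. Leaving out 1 experiment gave 20 to 153 genes, and leaving out 1 library 49 to 187. The 2 genes that changed from 15 min became 0 without the block, 4 when only the groups of the contrast were fitted and 7 with DESeq2's Wald test, with 0 to 1 without an experiment and 0 to 3 without a library. The 1 gene that changed from 150 min became 0 without the block and 0 with only the groups of the contrast, with 0 without any experiment and 0 to 1 without a library. The 97 genes that differed from cells kept apart became 0 without the block, 9 with only the groups of the contrast and 188 with DESeq2's Wald test, with 18 to 32 without an experiment and 20 to 125 without a library. Values that changed sign were Il6 (-0.21) without the acceptor library of experiment 4, and Lrrk2 without the acceptor library of experiment 2 (-0.16) or the donor library of experiment 1 (-0.09); with a library or experiment left out, they ranged from -0.21 to 5.59 and from -0.16 to 0.41. The cause of these changes was not tested. Of the 182 genes, 180 were also called with DESeq2 size factors and 175 with its Wald test. With 3 and 4 libraries per group, differences of genes near 1 CPM were not detectable reliably.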

Other observations

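Some genes that load amino acids onto transfer RNAs, and some of the response to amino acid shortage, were called higher in donors, beside 0.957% of all tested genes. Both lists were put together after the values were seen, so no test was made. Of 20 cytosolic aminoacyl-tRNA synthetases, 6 were called higher (Aars, Cars, Gars, Lars, Nars and Tars) and 0 lower. The median log2 fold change was 0.42, and 19 values were above 0, beside 6387 of all 13169 tested genes. The medians of the pairs were 0.41, 0.43 and 0.55 in experiments 1, 2 and 4. Lars, the leucine enzyme, measured 79.7, 78.8, 54.1 and 91.9 CPM in donors and 47.0, 55.7 and 51.5 CPM in acceptors, with donors higher in each pair although experiment 3 fell within the acceptor range. Of 17 genes of the shortage response, 5 were called higher (Trib3, Chac1, Psat1, Mthfd2 and Aldh18a1) and 0 lower, with a median of 0.81. Trib3, a pseudokinase induced by ATF4, measured 29.7, 58.5, 29.7 and 68.1 CPM in donors and 8.34, 19.9 and 13 CPM in acceptors, without overlap (1.85, adjusted p = 0.0015). In cells kept apart, 12 of the 17 were higher with aSyn, at a median of 0.99, beside 1178 higher of all 13169 tested genes.

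Among 10 tested genes known from osteoclasts and fused macrophages, also picked after the values were seen, Ocstamp, Acp5, Mmp9 and Spic were called higher and 0 lower. Acp5, the tartrate-resistant phosphatase gene, measured 2.65, 8.06, 5.79 and 7.21 CPM in donors and 1.39, 1.03 and 1.03 CPM in acceptors. The fusion gene Dcstamp (-0.80) and the integrin gene Itgb3 (-1.32) did not pass the test. Ocstamp lies 4622 bases from Slc13a3 on the same strand of chromosome 2, and Nod1, Ggct and Gars, all higher, follow each other on chromosome 6.

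For 12 of the 182 genes no call was made at any earlier time or in cells kept apart, among them Commd10, Exosc10, Hagh, Loxl3, Pfdn4, Sike1, Soga1, Stk32c, Stx1a, Usp9x and Zscan26. Whether their contrasts differ from those of the earlier times was tested only for 15 and 150 min, where none of the 12 passed. Against cells kept apart, edgeR called the difference for Exosc10 (0.65, adjusted p = 0.00661), Loxl3 (1.56, adjusted p = 0.0302) and Stx1a (-1.96, adjusted p = 0.0417). It was not called for the others. The 12 genes had been picked by their calls in these same contrasts.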
